A study of Sus scrofa with 18 samples.

Results

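Among the retinas of 18 piglets, 16 fell into 2 sets that differed widely in the RNA of ISG15, a small ubiquitin-like protein that interferon induces. The arrays were chosen by this measured ISG15 level alone. Retinas with an ISG15 level of 5.0 or more on the log2 scale were called high (7 arrays), and those with 4.0 or less were called low (9 arrays). The 2 arrays between were left out of the comparison. The array carries 1 named ISG15 probe set, and ISG15 itself was not counted as a result.

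All animals were male domestic pigs (Sus scrofa) from a cross of the Landrace and Large White breeds, bought at 3 days of age, assigned to the diets at random and sampled at postnatal day 38. The control diet was pig milk replacer, and the other diet was the same replacer plus sialyllactose, lactose joined to sialic acid, with 9 piglets each. The high set held 4 control and 3 sialyllactose piglets, and the low set held 4 control and 5 sialyllactose piglets. The sets were made from the measured values and are not groups of the study. No label gives an infection, a vaccination, an interferon dose or a litter.

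Type I interferons are secreted when a cell senses foreign nucleic acid. They bind a receptor of the chains IFNAR1 and IFNAR2, whose kinases JAK1 and TYK2 activate STAT proteins, and these join IRF9 to switch on a large set of interferon-stimulated genes. Their products block viral replication, sense viral RNA, and raise the display of antigen on the cell surface; type II interferon, made mainly by T and NK cells, acts through another receptor and strongly raises MHC class II and guanylate-binding proteins. In the retina, microglia, Mueller glia, endothelium and neurons can all respond.

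Each value is the expression level of 1 probe set on 1 Affymetrix pig array, in log2 units as the authors deposited it, so a difference of 1 is a doubling. The tissue carried abundant markers of retina, such as SAG, the rod arrestin, at 10.52 ± 0.08 in the high and 10.65 ± 0.16 in the low arrays (mean ± SD, n = 7 and 9), and GLUL, glutamine synthetase of Mueller glia, at 10.45 and 10.58. Any pair of arrays correlated at 0.981 to 0.992 over the probe sets used. For 4 measures of array quality taken from control probe sets, the sets overlapped. Their exact permutation p-values (two-sided, over 11440 splits) ran from 0.271 to 0.774. Their Benjamini-Hochberg values, adjusted together with the p-value of the array median, ran from 0.953 to 0.967. These are whole-retina RNAs, in which more cells of a type and more RNA per cell cannot be told apart.

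ISG15 chose the arrays, so its levels are only described. In the high arrays ISG15 ran from 5.23 through a median of 6.41 to 8.02, and in the low arrays from 2.83 through 3.17 to 3.98. The lowest high array was control piglet 5 at 5.23, and the highest low array was control piglet 1 at 3.98. Between them lay control piglet 7 at 4.20 and sialyllactose piglet 1 at 4.73. The levels were thus spread without a wide empty range at the thresholds.

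The comparison of all other probe sets asked what else differed between retinas with much and with little ISG15 RNA. High arrays carried more RNA of 11 of 29 tested antiviral effectors, among them RSAD2, MX1, IFIT1 and GBP1, of 4 of 15 genes of MHC class I display, of 2 of 8 of MHC class II, of the transcription factor IRF9 and of the complement proteases C1R and C1S. The tested receptors and ligands of interferon were not called. With diet as a covariate in limma, 52 of 16798 tested probe sets were called higher in the high arrays (0.31%) and 3 were called lower (0.0179%), where called means an adjusted p under 0.05 after Benjamini-Hochberg adjustment over all tested probe sets. The folds of the 52 ran from 1.36 to 11.2, with a median of 2.19, and 33 of them were at least 2-fold. No tested probe set was lower by 2-fold or more. The median difference over all 16798 probe sets was -0.0005, and the median size of a difference was 0.055. Every difference and fold below is this diet-adjusted one, so it can depart a little from the gap between the means. Because the arrays were sorted by a gene measured on them, the p-values describe how closely other genes followed ISG15 in these piglets.

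**Figure D1:**
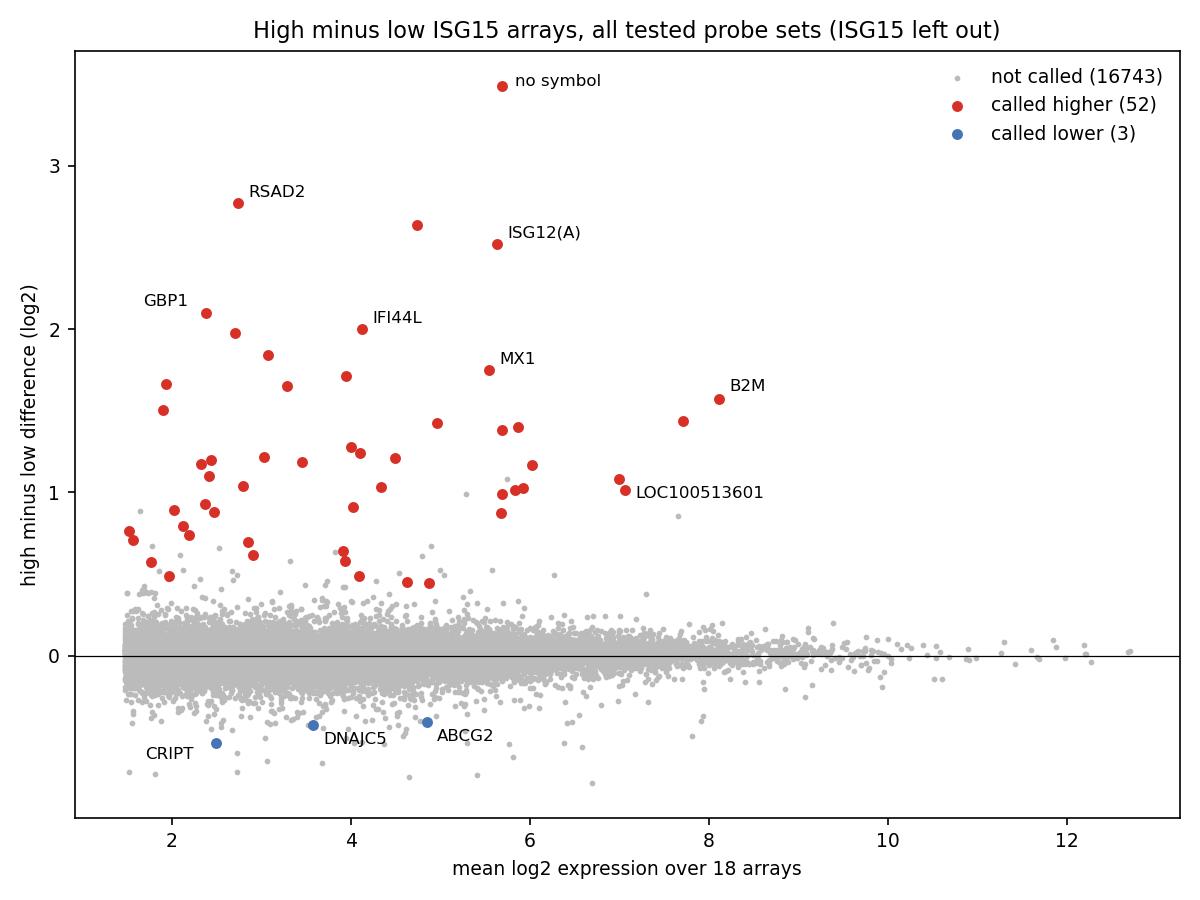
Difference between the high and low ISG15 arrays (vertical axis, log2) against the mean level over 18 arrays (horizontal axis, log2) for each of 16798 tested probe sets; red points are the 52 called higher and blue points the 3 called lower in limma at an adjusted p under 0.05. The red points reach 3.49, whereas the blue points lie between -0.53 and -0.41.

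At the level of genes, each read from its brightest tested probe set, 29 of 5709 were called higher (0.508%) and 2 were called lower (0.035%). Positive differences, called or not, were held by 47.7% of the 5709 genes, the share to set beside the counts of signs below. Of the 52 probe sets called higher, 35 were annotated to 1 gene, 1 to more than 1, and 16 carried no symbol. In 25 of the 52, all 7 high arrays lay above all 9 low arrays, against 27 of all 16798 probe sets (0.161%). The p-value of such a complete separation is limited by the number of arrays: an exact rank-sum test in place of limma called 0 probe sets, with a lowest adjusted p of 0.0979 and 802 at an unadjusted p under 0.05 (954 in limma).

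Among the antiviral effectors, RSAD2, also known as viperin, which makes a chain-terminating nucleotide that halts viral RNA synthesis, differed most. In high arrays RSAD2 ran from 3.39 through a median of 4.30 to 5.63, and in low arrays from 1.28 through 1.48 to 2.08. The lowest high array thus lay well above the highest low array, and the means were 4.33 ± 0.82 (SD, n = 7) and 1.59 ± 0.29 (SD, n = 9), 6.83-fold apart after adjustment for diet (limma, adjusted p = 3.2e-05). The highest RSAD2 levels belonged to sialyllactose piglets 4 and 7, which were also the highest for ISG15.

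IFIT1 and IFIT3, which bind viral RNA that lacks the host cap marks, moved alike. IFIT1 ran from 3.02 through 3.73 to 4.79 in the high arrays and from 1.43 through 1.90 to 2.28 in the low arrays, with no overlap and a difference of 1.97 (3.93-fold, adjusted p = 0.000355). IFIT3 had means of 4.13 ± 0.94 and 2.33 ± 0.32 and a difference of 1.84 (adjusted p = 0.0029). For both genes every high array exceeded every low array.

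MX1, a GTPase that traps viral nucleocapsids, was a bright gene even where ISG15 was low. Its level ran from 5.63 through 6.37 to 7.77 in the high arrays and from 4.56 through 4.82 to 5.26 in the low arrays. The sets did not overlap, and the fold was 3.36 (adjusted p = 0.00041). EIF2AK2, the RNA-activated kinase that shuts down translation, showed one of the tightest separations: 6.47 ± 0.44 against 5.10 ± 0.19, a 2.61-fold difference (adjusted p = 0.00015).

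GBP1, a guanylate-binding protein that attacks the membranes enclosing intracellular pathogens and responds strongly to type II interferon, was near the dim end of the array in low retinas. It ran from 2.51 through 3.98 to 4.48 in high arrays and from 1.26 through 1.58 to 1.89 in low arrays, a 4.29-fold difference (adjusted p = 0.00019), and both of its probe sets were called. Here the order of the piglets was not that of ISG15: control piglet 5, lowest of the high set for ISG15, stood at 3.98 for GBP1, above sialyllactose piglet 7 at 3.64.

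ISG12(A), a small mitochondrial protein of the interferon alpha-inducible family, had the largest fold among the remaining named genes. Its level ran from 5.19 through 6.98 to 8.21 in high arrays and from 4.07 through 4.55 to 5.32 in low arrays (5.75-fold, adjusted p = 0.000355). The sets overlapped through 1 array of each, since control piglet 5 of the high set lay below control piglet 1 of the low set. IFI44L, an interferon-induced gene that dampens the antiviral response, differed by 2.00 in 1 probe set (3.998-fold, adjusted p = 0.0004) and by 1.10 in its other one, both called.

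**Figure D2:**
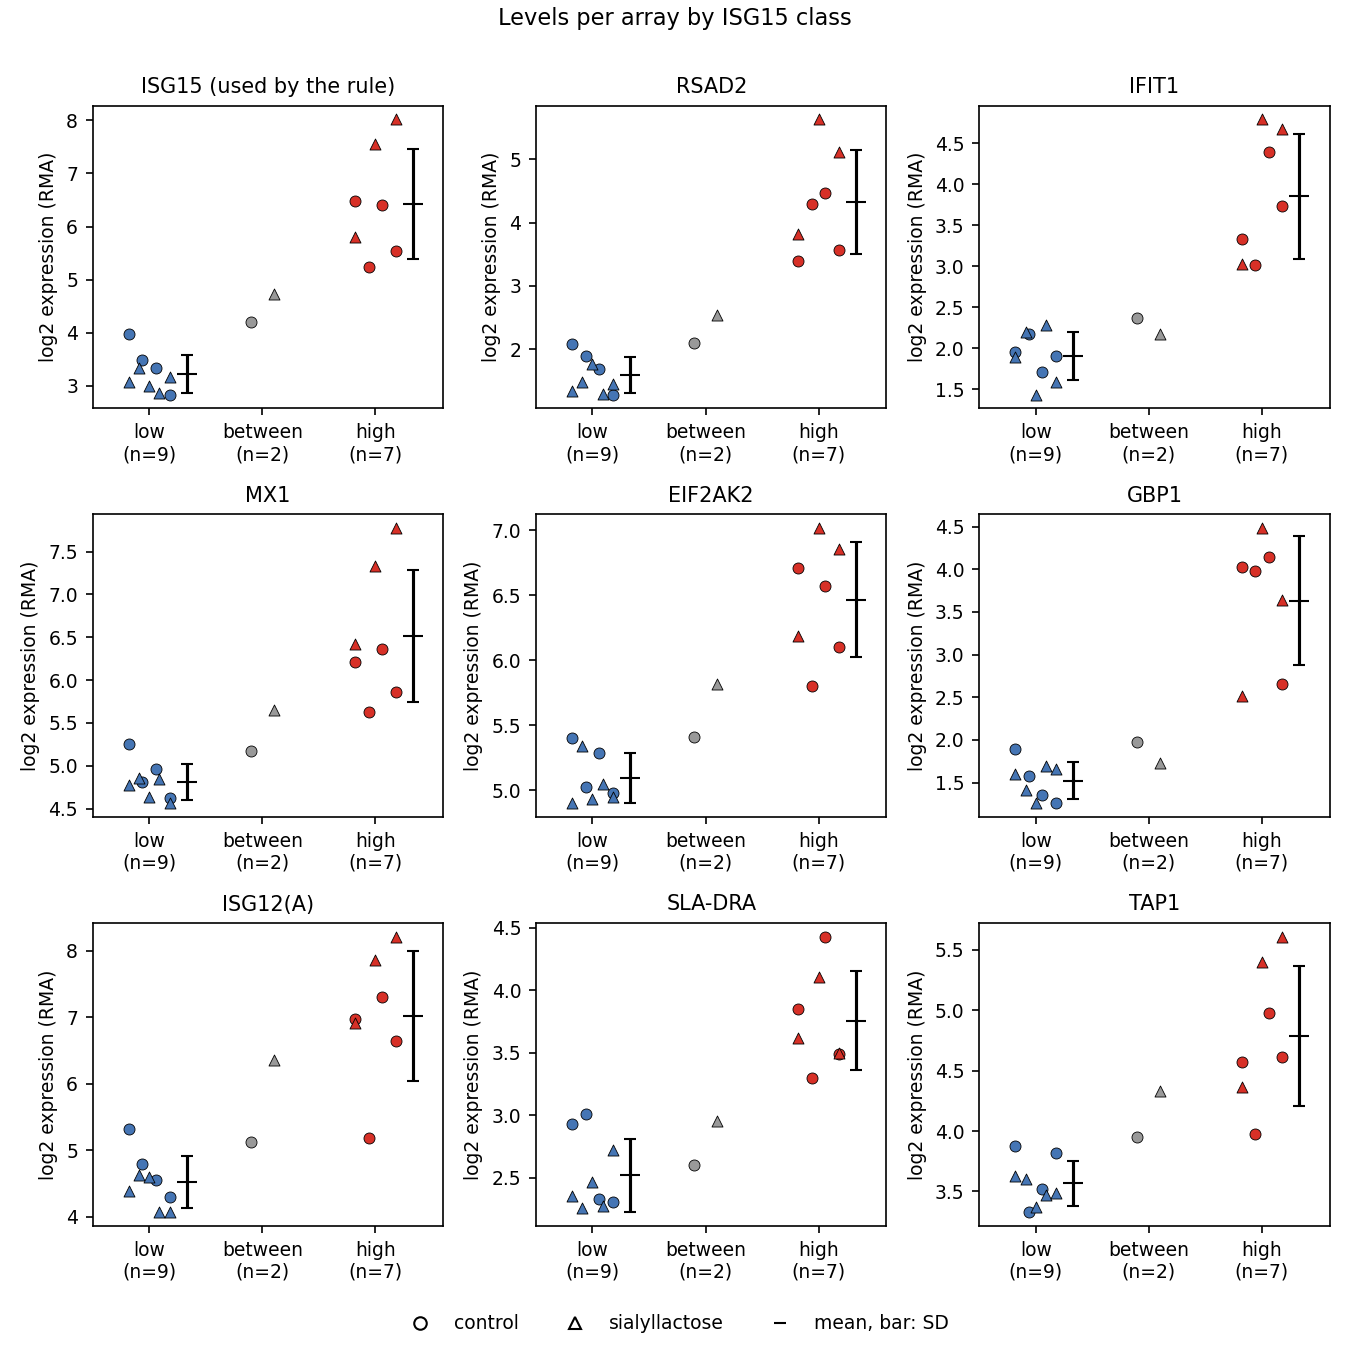
Level of 9 genes (vertical axes, log2) in each of the 18 arrays, sorted by ISG15 into low (n = 9), between (n = 2) and high (n = 7); circles are control and triangles sialyllactose piglets, and the bars beside the low and high points give the mean and SD. RSAD2, IFIT1, MX1, EIF2AK2, GBP1, SLA-DRA and TAP1 show no overlap between low and high arrays, and ISG12(A) overlaps through 1 array of each set.

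Of 74 antiviral effectors listed, 36 had a named probe set and 29 passed the level filter. Of these, 11 were called higher (0.508% of all tested genes were) and 0 lower. Their median difference was 0.33 against -0.004 over all 5709 genes. ISG12(A) was not on this list under that symbol. Besides the other genes above, the called members were PARP12 and PARP9, which are ADP-ribosyltransferase family proteins (differences of 1.18 and 0.89), XAF1, which promotes cell death (0.93), and PHF11 (0.49). PARP9 had an adjusted p of 0.037 and was no longer called in 9 of 16 fits that each left out 1 array. OAS1, which makes the signal that activates RNase L, had means of 2.18 and 1.54 and missed the threshold (adjusted p = 0.09), as did SP140 (2.91 against 2.26, adjusted p = 0.22). SAMHD1, which depletes the nucleotides that viruses need, differed by 0.02 (adjusted p = 0.99), so members of the list differed widely among themselves.

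USP18, the protease that removes ISG15 from its targets and also restrains the type I receptor, stood at 4.96 ± 0.60 in the high and 3.25 ± 0.32 in the low arrays. Its levels ran from 4.33 to 5.77 and from 2.79 to 3.72, without overlap, a 3.27-fold difference (adjusted p = 0.000355). ARIH1, a ubiquitin ligase and the other tested gene of the ISG15 conjugation list, differed by 0.03 (adjusted p = 0.96). The remaining 6 symbols of that list, among them the activating and conjugating enzymes UBA7 and UBE2L6, were not analysed here for want of a named probe set.

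Of the sensors of viral nucleic acid, DDX58 (RIG-I), a helicase that binds viral RNA, was called. It ran from 2.28 through 2.76 to 4.67 in the high arrays and from 1.73 through 1.93 to 2.20 in the low arrays, 2.29-fold (adjusted p = 0.013). Sialyllactose piglet 7 at 4.67 and piglet 4 at 3.74 stood above the other high arrays, and without piglet 4 the adjusted p was 0.061. The kinase TBK1 and the adaptor TRAF6, which carry the sensors' signal onward, differed by 0.04 and 0.10 and were not called, and these 3 genes were all that were tested of the 27 listed.

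No interferon ligand or receptor was called. IFNAR1 stood at 4.46 ± 0.18 and 4.53 ± 0.16, IFNAR2 at 4.12 ± 0.19 and 4.0 ± 0.23, and IFNGR1, a chain of the type II receptor, at 3.16 ± 0.14 and 3.03 ± 0.18 (high, then low, limma, adjusted p from 0.939 to 0.945). The 95% interval of the difference ran from -0.26 to 0.06 for IFNAR1 and from -0.11 to 0.31 for IFNAR2. IFNA1 was dim in both sets, at 2.69 and 2.74, and the probe sets of IFNB1 and IFNG fell under the level filter of 1.48 and were not tested.

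In the signalling chain, IRF9, the DNA-binding partner of the STAT proteins, was the 1 of 13 tested genes that was called. IRF9 ran from 2.59 through 3.33 to 4.30 in the high arrays and from 2.15 through 2.28 to 2.63 in the low arrays, a 2.06-fold difference (adjusted p = 0.011), and without sialyllactose piglet 7 the adjusted p was 0.05003. The sets overlapped slightly at their edges. IRF1, a factor that type II interferon strongly induces, had means of 2.45 and 1.83 (adjusted p = 0.13), and IRF7, which amplifies interferon production, had means of 2.56 and 2.24 (adjusted p = 0.44). JAK1 and TYK2 lay slightly lower in the high arrays (-0.11 and -0.08), JAK2 and STAT2 differed by 0.02 and 0.18, and none of these 4 was called. The median over the 13 genes was 0.03.

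MHC class I shows peptides from within the cell to T cells. Of 26 listed genes of this display, 15 were tested and 4 were called higher (0.508% of all tested genes were). The differences of all 15 were positive (47.7% of all tested genes had positive ones), with a median of 0.38. TAP1, a subunit of the transporter that brings peptides to MHC class I, ran from 3.98 through 4.61 to 5.61 in high arrays and from 3.33 through 3.52 to 3.88 in low arrays, without overlap (2.36-fold, adjusted p = 0.0015). Its second, dimmer probe set differed by 0.05, and the mean of both by 0.64.

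The other called class I genes were the heavy chains SLA-3 (4.95 ± 0.45 against 3.88 ± 0.39, adjusted p = 0.0052) and SLA-2 (6.15 ± 0.49 against 5.26 ± 0.30, adjusted p = 0.039), and PSME2, a proteasome activator (difference 0.45, adjusted p = 0.021). In the 16 fits that each left out 1 array, the call of SLA-2 was lost in 13 and that of PSME2 in 6. LOC100513601, for which RefSeq lists SLA-1 as a synonym, was one of the brightest called genes, at 7.62 ± 0.51 against 6.59 ± 0.31 (adjusted p = 0.012). The class I heavy chains are near copies of each other, so a probe set can take signal from more than 1 of them. PSME1 and the immunoproteasome subunit PSMB8 had differences of 0.61 and 0.38 and were not called. UBD, a ubiquitin-like protein that delivers proteins to the proteasome, ran from 1.54 through 2.74 to 4.14 in high arrays and from 1.16 through 1.27 to 1.48 in low arrays (2.84-fold, adjusted p = 0.032). Its high arrays were widely spread, with an SD of 1.01, and its call was lost in 11 of the 16 fits without 1 array. The mean of UBD in the low arrays, 1.28, lay under the level filter of 1.48. That filter was set on the mean over all arrays, which was 1.90 for UBD.

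B2M, the light chain of MHC class I, gave different answers from its 9 tested probe sets and was singled out after its values were seen. The brightest, by which the gene was represented, stood at 8.69 and 8.67, whereas 2 others were called, at 9.00 ± 0.58 against 7.41 ± 0.35 (2.97-fold) and 6.51 ± 0.45 against 5.44 ± 0.28 (2.04-fold). The remaining 6 had differences from -0.54 to 0.01. Which of these probe sets matches the gene's transcript was not tested.

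MHC class II displays antigen to helper T cells and in nervous tissue is held mainly by activated microglia. Of 15 listed genes, 8 were tested and 2 were called higher (0.508% of all tested genes were). The differences of all 8 were positive (47.7% of all tested genes had positive ones), with a median of 0.30. SLA-DRA, the alpha chain of the DR molecule, ran from 3.30 through 3.62 to 4.43 in the high arrays and from 2.26 through 2.35 to 3.01 in the low arrays. Every high array lay above every low one, a 2.33-fold difference (adjusted p = 0.00041). SLA-DRB1, its beta chain, was called only just (3.24 ± 0.32 against 2.54 ± 0.32, adjusted p = 0.0498), and not in 14 of the 16 fits that left out 1 array. SLA-DMB, which loads peptides (2.56 against 2.19), and the protease CTSS (4.49 against 4.17) were not called (adjusted p = 0.13 and 0.35). CIITA, the master regulator of these genes, which was listed with the signalling genes, differed by -0.05 and was not called.

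Markers of the cells that hold MHC class II were looked at beside these genes. Of 23 markers of microglia and macrophages, 16 had a named probe set and 8 were tested. None was called, the median difference was 0.13, and 6 of the 8 had positive differences (47.7% of all tested genes did). Their summed linear level ran from 46.5 to 65.2 in the high arrays and from 41.1 to 49.4 in the low arrays, so the ranges overlapped. The smallest p-values of the list belonged to CTSS, also a member of the class II list, and FCGR3A. CTSS stood at 4.49 and 4.17 and FCGR3A at 1.99 and 1.61 (limma, adjusted p = 0.35 and 0.89). The marker AIF1 stood at 1.76 and 1.72, P2RY12 at 1.77 and 1.54, and CD163, ITGAM, ITGB2, TYROBP and PTPRC lay under the level filter. What part this list had in the differences of MHC class II or of the antiviral genes was not tested.

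For T and NK cells, the main source of type II interferon, 8 of 30 markers were tested and 0 were called. CD3D, part of the T cell receptor, stood at 2.16 and 2.17, and the summed linear level of the list ran from 27.9 to 30.5 in high and from 26.7 to 30.3 in low arrays. CD3E, CD3G, CD2, CD8A and LCK were under the level filter. Of the B and plasma cell markers 0 of 15 passed the level filter, and of the 14 neutrophil and monocyte markers 1 did, NPG4, which was not called (1.78 against 1.66).

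Chemokines that draw immune cells were not called: of 22 listed, 8 were tested, with a median difference of 0.03. CCL4 stood at 1.97 and 1.87 and CCL5 at 1.62 and 1.52, and CXCL9, CXCL8 and CCL2 were under the filter. Of 13 tested genes of inflammation and NF-kB signalling, 12 had positive differences (47.7% of all tested genes did) but none was called. NFKBIA, the inhibitor that NF-kB itself induces, differed by 0.15 and SOD2, a mitochondrial antioxidant enzyme, by 0.20 (adjusted p = 0.81 for both), and IL1B and TNF by 0.09 and 0.02.

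Within the complement list, 2 of 15 tested genes were called higher (0.508% of all tested genes were). Both encode the proteases of the first complement component. C1R stood at 2.62 ± 0.32 against 1.89 ± 0.22 (1.67-fold, adjusted p = 0.0054). C1S, its partner, stood at 2.13 ± 0.21 against 1.55 ± 0.28 (1.49-fold, adjusted p = 0.047), and this call was lost in 13 of the 16 fits without 1 array. C3, the central component, stood at 5.81 and 5.80, C1QC, a chain of the recognition unit, at 1.95 and 1.5 (adjusted p = 0.88), and the median over the list was 0.02.

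**Figure D3:**
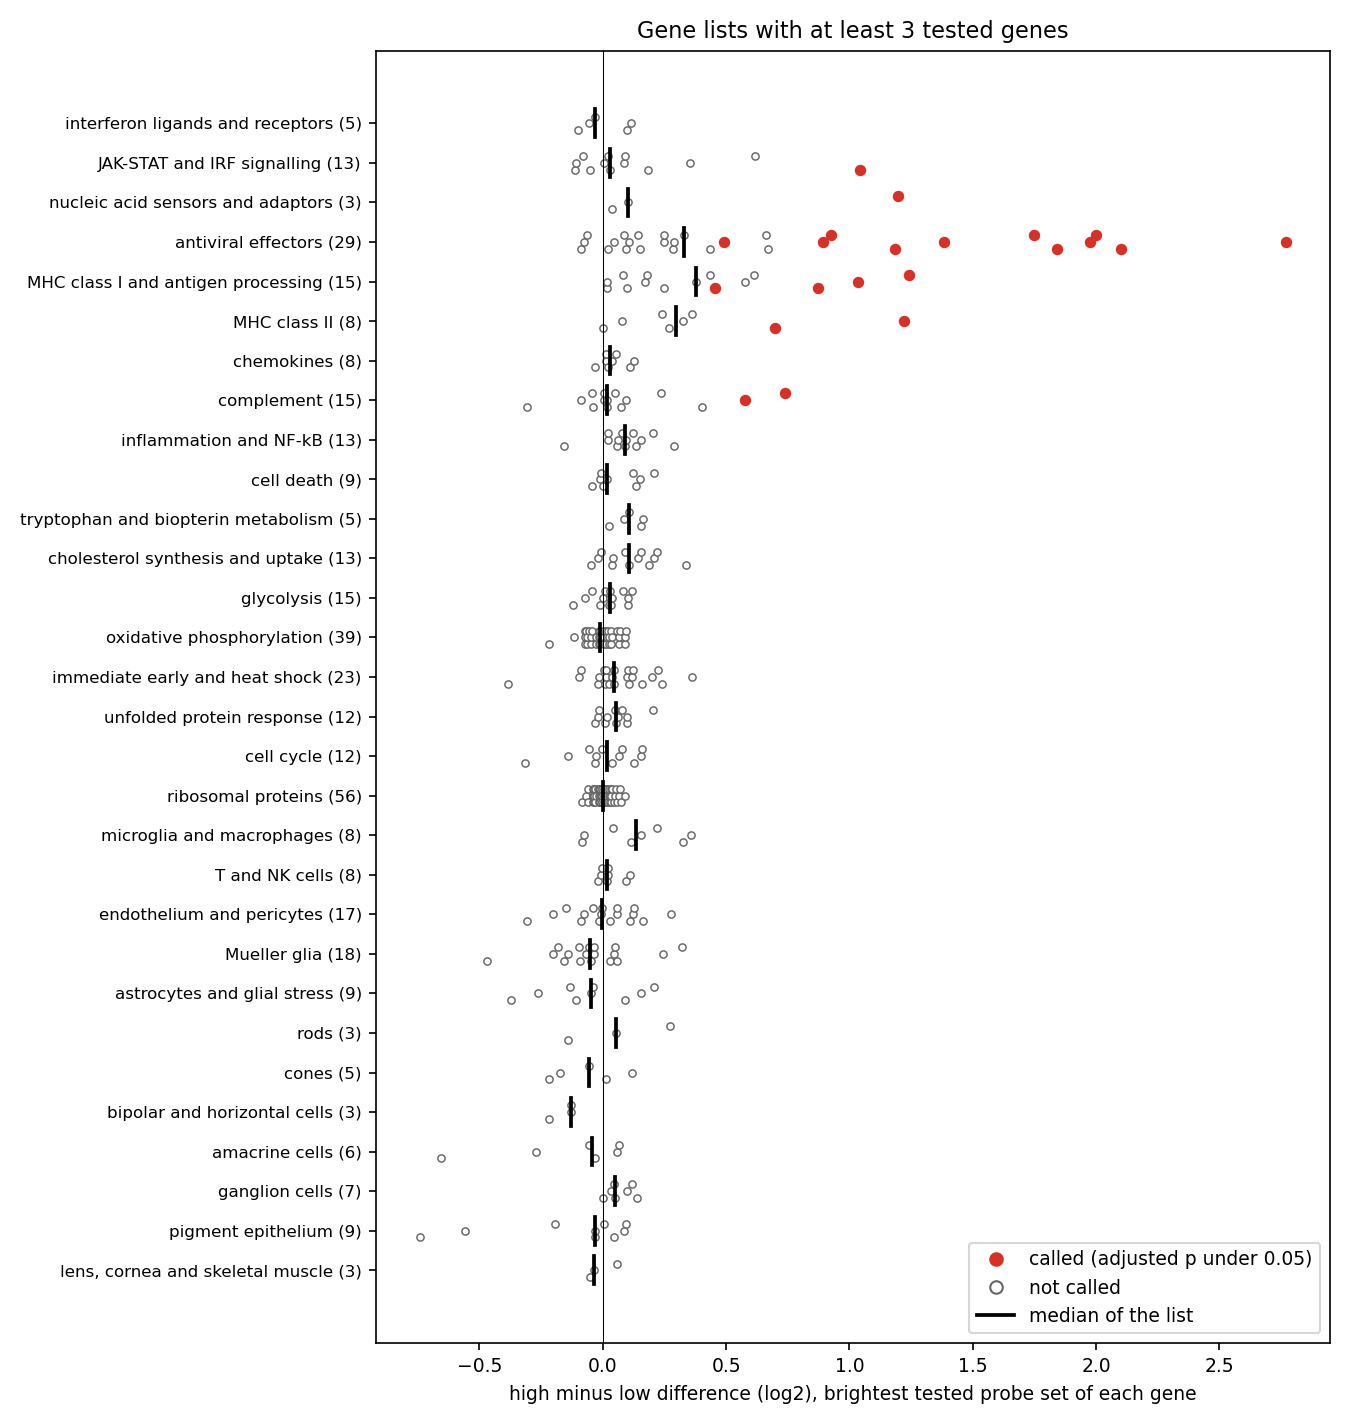
Difference between high and low ISG15 arrays (horizontal axis, log2) of each tested gene in 30 lists with at least 3 tested genes (rows, with the number tested); filled red points were called in limma at an adjusted p under 0.05, open points were not, and the black bar is the list's median. The medians of MHC class I (0.38), antiviral effectors (0.33) and MHC class II (0.30) stand furthest to the right, and no gene of the cell type or metabolic lists was called.

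Of the 52 probe sets called higher, 16 carried no symbol and others only a locus number, and some of these are described here. LOC733579, a gene known here only by its locus number, stood at 4.75 ± 0.30 and 3.48 ± 0.22 with no overlap (2.42-fold, adjusted p = 3.2e-05). LOC100519098, next to HEPACAM2 in the RefSeq table of the assembly Sscrofa11.1, was dim but separated, at 1.96 ± 0.28 and 1.19 ± 0.21 (adjusted p = 0.0019). The level filter of 1.48 was set on the mean over all arrays, 1.52 here. The low arrays alone lay under it on average, so the high arrays carried this probe set past the filter. Without any filter on dim probe sets, all 55 calls were kept. The largest difference of all belonged to a probe set without a symbol, singled out after its values were seen: it ran from 4.70 through 8.10 to 8.53 in high arrays and from 3.16 through 3.63 to 5.34 in low arrays (11.2-fold, adjusted p = 0.000803). Its sets overlapped at the edges.

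Other probe sets outside the rule for naming genes, also chosen after their values were seen, were 1 of 3 annotated to RSF1, a chromatin remodelling factor (2.64, with the other two at 0.02 and 0.00), 1 of 3 annotated to SHISA5 (0.64, with the others at -0.11 and -0.08), and the 1 shared by IFITM3, which blocks viral entry, and LOC100519082 (1.65). ANXA1, an anti-inflammatory annexin, differed by 0.62 (adjusted p = 0.043), and LOC106504372, with the RefSeq synonym SLA-DRB, by 0.58 (adjusted p = 0.0498).

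On the lower side, ABCG2, an efflux transporter of blood vessels and stem cells, ran from 4.43 through 4.67 to 4.76 in the high arrays and from 4.88 through 5.07 to 5.199 in the low arrays. All high arrays lay below all low arrays, a 0.754-fold level (adjusted p = 0.0021), and its second probe set differed by -0.29 without being called. DNAJC5, a chaperone of synaptic vesicles, ran from 3.18 to 3.56 in high and from 3.61 to 4.04 in low arrays (0.746-fold, adjusted p = 0.0034). The third call was 1 of 3 probe sets of CRIPT (-0.53), a gene whose brightest probe set differed by 0.01. These 3 were all of the probe sets in which every high array lay below every low one (0.0179%).

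The cell types that make up most of the retina showed no called gene. Rods (3 tested genes), cones (5), bipolar and horizontal cells (3), amacrine cells (6), ganglion cells (7), Mueller glia (18), astrocytes (9), endothelium and pericytes (17) and pigment epithelium (9) had list medians from -0.13 to 0.05. Among Mueller glia genes 12 of 18 had negative differences, where 47.7% of all tested genes had positive ones. The smallest p belonged to ID3, a transcriptional regulator that went the other way, at 5.62 and 5.29 (adjusted p = 0.37). Lower means were held by RLBP1, the retinaldehyde-binding protein, at 8.74 and 8.93, and APOE, a lipid carrier, at 4.37 and 4.79 (adjusted p = 0.81 and 0.79). Only 1 of the 2 tested probe sets of APOE had a negative difference. GFAP, the filament that rises in stressed glia, stood at 5.41 ± 0.28 and 5.62 ± 0.42 (adjusted p = 0.86), and 3 of its 4 tested probe sets had negative differences. SERPINF1, the pigment epithelium-derived factor, had the largest negative difference of these lists, -0.74, with wide and overlapping ranges (3.46 to 5.23 against 4.04 to 5.30, adjusted p = 0.36).

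**Figure D4:**
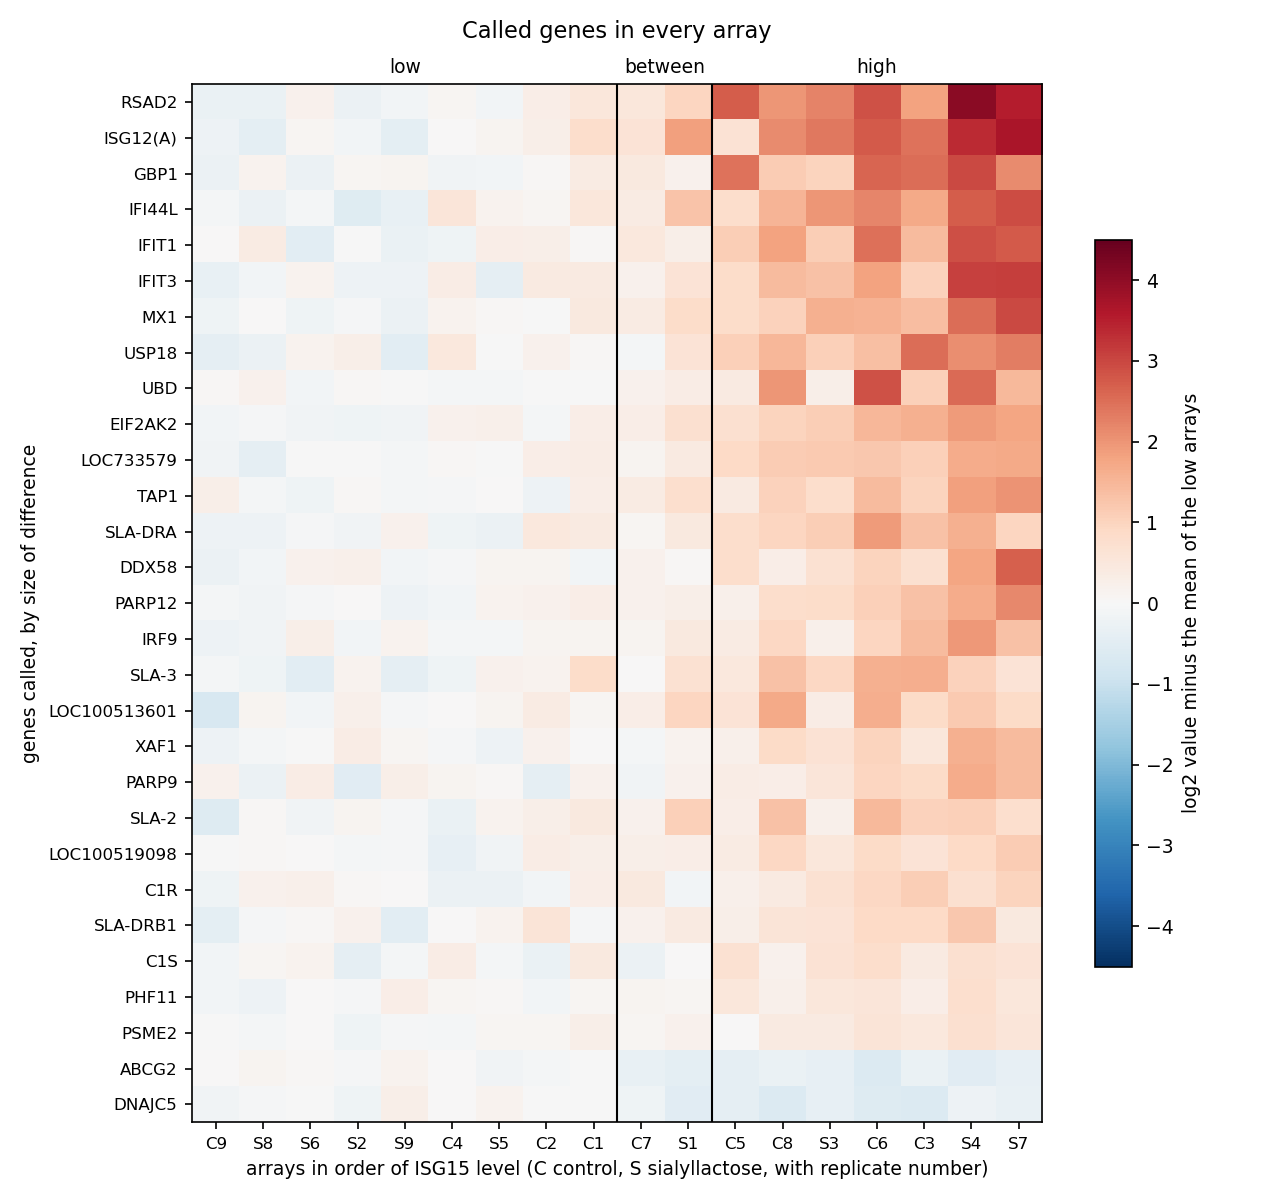
Log2 level minus the mean of the low arrays (colour) of the 29 called genes named by the rule (rows, by size of difference) in the 18 arrays (columns, in order of ISG15; C control, S sialyllactose, with the replicate number; black lines part low, between and high). Colour deepens toward the right for most rows, and sialyllactose piglets 4 and 7 are the darkest.

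The high arrays were not alike in degree. Averaged over the 52 probe sets called higher, the excess over the mean of the low arrays was 1.72 in sialyllactose piglet 4, 1.68 in sialyllactose piglet 7, 1.46 in control piglet 6, 1.27 in control piglet 3, 1.04 in control piglet 8, 0.927 in sialyllactose piglet 3 and 0.631 in control piglet 5. Sialyllactose piglet 7 was the highest array of its set in 18 of the 52 and sialyllactose piglet 4 in 17, and control piglet 5 was the lowest in 33. Of the arrays between, which the fit did not use, sialyllactose piglet 1 had an excess of 0.629, close to that of control piglet 5, and control piglet 7 had 0.261. In sialyllactose piglet 1, 30 of the 52 probe sets lay above every low array, against 12 in control piglet 7. The same counts over all tested probe sets were not taken. Whether either count exceeds what a single array shows in general was therefore not tested. The largest excess in a low array was 0.318, in control piglet 1, the one with the most ISG15 of that set.

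The difference between high and low retinas was also taken within each diet, since control and sialyllactose piglets share no array, though both contrasts share 1 estimate of the spread. Within sialyllactose, 3 high against 5 low, 47 probe sets were called higher (0.28%) and 0 lower. Within control, 4 high against 4 low, 3 were called higher (0.0179%), namely RSAD2, LOC733579 and GBP1, and 1 lower (0.00595%), EFEMP2, an extracellular matrix protein. EFEMP2 differed by -0.65 within control and by 0.02 within sialyllactose, so it did not keep its direction. The 3 higher ones were called in both diets, which is 75% of the control calls and 6.38% of the sialyllactose calls. All 47 probe sets called within sialyllactose were higher within control too, and 38 of them had an unadjusted p under 0.05 there, against 4.83% of all tested probe sets.

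Single arrays moved these counts. Without control piglet 5, 34 probe sets were called within control, and without sialyllactose piglet 3, 26. Leaving out control piglet 6 or control piglet 9 gave 0, and leaving out control piglet 1, 2 or 3 or sialyllactose piglet 6 or 8 gave 1 or 2. Within sialyllactose the count was 26 without piglet 4 and 23 without piglet 7.

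The gap in ISG15 itself, which sorted the arrays, was 4.05 within sialyllactose (7.13 against 3.08) and 2.51 within control (5.91 against 3.41). Sizes were likewise larger within sialyllactose for 43 of the 52 probe sets called higher. The median over the 47 called within sialyllactose was 1.36 there against 0.83 within control, but their choice within sialyllactose favours a larger value there. Over the 3 called higher within control, the medians were 2.18 within control and 2.02 within sialyllactose. RSAD2 differed by 3.39 within sialyllactose (95% interval 2.72 to 4.06) and by 2.19 within control (1.55 to 2.84). MX1 differed by 2.44 and 1.10, and IFI44L by 2.75 and 1.29. GBP1 did not follow that order, at 2.02 within sialyllactose and 2.18 within control. The test of the difference itself, the interaction of diet and ISG15 set in limma, called 0 probe sets, with a lowest adjusted p of 0.295 and 1260 at an unadjusted p under 0.05, and it called 3 without sialyllactose piglet 3. For MX1 the interaction was 1.34 (adjusted p = 0.51).

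**Figure D5:**
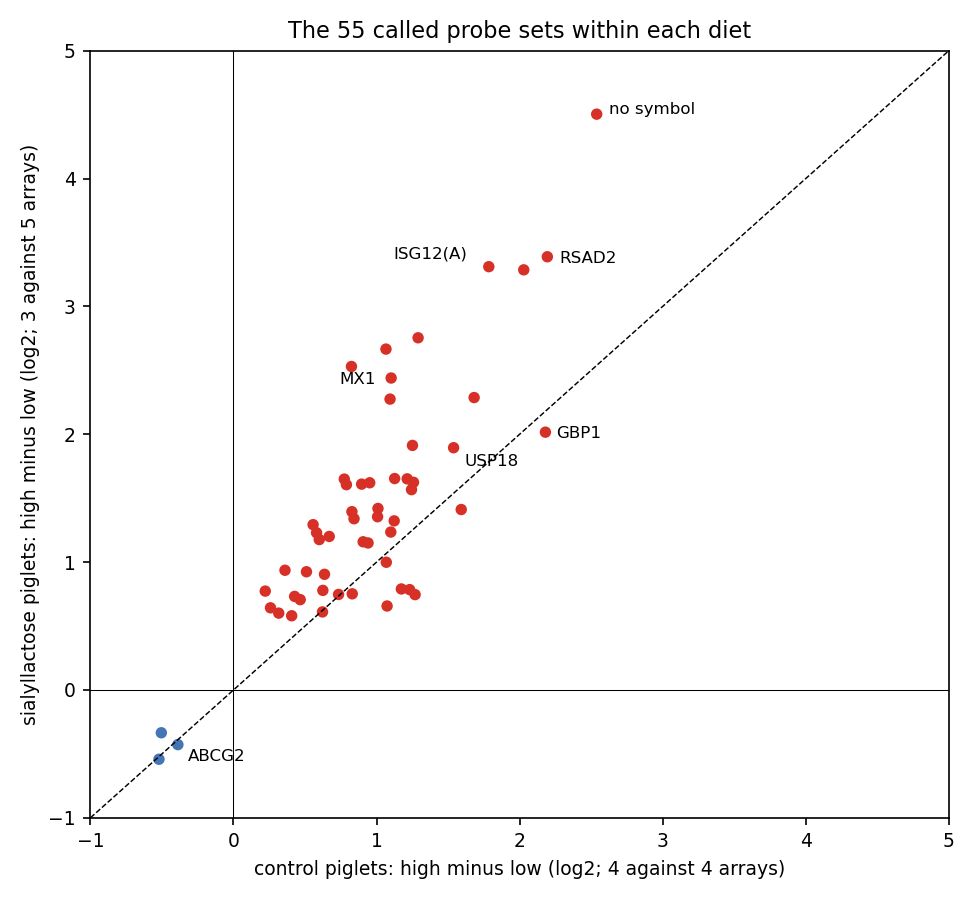
Difference between high and low ISG15 arrays within control (horizontal axis, log2, 4 against 4 arrays) and within sialyllactose (vertical axis, log2, 3 against 5 arrays) for the 55 called probe sets; red were called higher and blue lower over both diets, and the dashed line marks equal differences. All 55 keep 1 sign in both diets, which their choice from the same arrays over both diets favours, and 43 of the 52 red points lie above the line.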

How the data were processed

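The values are log2 expression levels, 1 for every probe set on every array, which the authors made with Affymetrix Expression Console and RMA per the submitters' processing notes; versions and settings are not given in the sources used here. RMA in general compresses differences of dim probe sets and sets all arrays to 1 distribution. Of 24123 probe sets, 124 controls, the dimmest 30% (7200, mean over 18 arrays) and ISG15 were left out, which left 16798. Names came from the platform annotation (10099 probe sets with 1 symbol, 198 with several, 13826 with none), and 9961 were found in RefSeq with 0 symbols changed. The array's build is not named, so no coordinates are given.

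High and low arrays were compared in limma 3.58.1 (R 4.3.3; lmFit, eBayes) with diet as covariate and Benjamini-Hochberg adjustment; within-diet contrasts came from a fit of 4 groups. On simulated data for high minus low (16798 probe sets, 50 changed per size) 30% were recovered at 1.2-fold, 94% at 1.5-fold and 100% at 2-fold and 3-fold. The same run gave 9 false calls. Its noise was drawn independently for each probe set, so it held no genes that vary together. The piglets are separate animals.

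The members and the 34 gene lists were chosen with earlier results of these data known. Genes named were the 25 higher and 15 lower with the smallest p among those called, RSAD2, MX1 and IFIT1, and up to 4 (interferon and immune) or 2 (other) tested members of each list by p; further list members are named to describe their list. The main fit took the arrays of the diets as unpaired. Correlations of same-numbered arrays ran from -0.098 to 0.150 over 7 pairs, with 2 above 0.1. Whether the replicate numbers stand for something shared across diets was not tested, and a fit with the number as a block is given below.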

Additional observations from a re-analysis of the deposited data

Results flagged for a closer look

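In 13 of 186 sets of array values checked, 1 array lay far from the rest of its set, and chance alone gives such a gap in about 5% of sets. Among immune genes in the high arrays, AMCF-II was highest in control piglet 5 (6.73, next 6.34), FCGR3A in control piglet 3 (2.99, next 2.13) and IFNAR2 in control piglet 3 (4.53, next 4.18). In the low arrays IRF1 was lowest in sialyllactose piglet 6 (1.24, next 1.81), IRF7 highest in sialyllactose piglet 5 (2.81, next 2.32), NFKBIA highest in control piglet 1 (4.98, next 4.69) and TBK1 lowest in sialyllactose piglet 9 (4.72, next 4.82). LOC100513601 was the 1 called gene with such an array, at 5.88 in control piglet 9 of the low set (next 6.47). PTS, an enzyme of biopterin synthesis, was lowest in control piglet 2 of the low set (6.39, next 6.80).

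Of the retina's own genes, SAG was lowest in sialyllactose piglet 3 of the high set (10.33, next 10.51) and in sialyllactose piglet 8 of the low set (10.25, next 10.58). APOE was highest in control piglet 6 of the high set (5.28, next 4.41). SST, the neuropeptide somatostatin, was highest in control piglet 4 of the low set (6.22, next 4.21).

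A control probe set at the 3′ end of a transcript that the platform annotation gives as RSAD2 was left out with the other controls. It ran from 1.17 through 1.84 to 2.93 in the high arrays and from 0.37 through 0.49 to 0.70 in the low arrays, without overlap, and the means differed by 1.40. The control probe sets at the 5′ end and the middle of that transcript differed by 0.157 and 0.304, and in both the high and low arrays overlapped.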

How the results depend on the processing

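The 55 calls (52 higher, 3 lower) were recomputed under other settings, and the cause of a change was not tested unless the setting shows it. Leaving out 50% of probe sets as dim, which tests fewer, gave 36 (34 higher), all shared with the 55. An exact rank-sum test gave 0 (0 higher, 0 lower). The lower calls numbered 5 with quantile normalization, with the first principal component of the residuals or with GAPDH 3′ minus 5′ as covariate, 6 with the hybridization control level as covariate and 7 at an adjusted p under 0.1; the GAPDH and hybridization covariates were chosen after seeing the data. ISG15 as a continuous covariate over 18 arrays called 74, of which 53 were shared. Without 1 array, the count ran from 41 to 65 and the lower calls from 3 to 5. With the replicate number as a block, the counts were 11 (10 higher, 1 lower) in the full comparison, 1 within control and 1 within sialyllactose, and 3 of 7 arrays correlated best with their own number across diets. The count within control was 1 with an intensity trend and robust prior, 25 at an adjusted p under 0.1, and 0 to 34 without 1 array; within sialyllactose it was 23 to 54 without 1 array, and the interaction had 0 to 3.

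Of the 29 called genes named by the rule, 20 were called in each of the 16 fits that left out 1 array. The call was lost in 14 of these for SLA-DRB1, 13 each for C1S and SLA-2, 11 for UBD, 9 for PARP9 and 6 for PSME2. DDX58, IRF9 and LOC100513601 lost it in 1 each. DNAJC5 was lost with continuous ISG15, and 7 of the 29 were called with the block. Apart from the block and the mean of a gene's probe sets, their differences stayed between 0.78 and 1.17 times the value given; as the mean of its probe sets TAP1 was 0.64, or 0.52 times. Signs turned only for uncalled genes: with 1 array left out, the difference of AMCF-II ran from -0.0226 to 0.0862, of CXCL14 from -0.0438 to 0.126, of DES from -0.0190 to 0.133 and of HBB from -0.0458 to 0.0394; DES was -0.0330 and NDUFA1 -0.106 as the mean of a gene's probe sets; HBB was 0.00499 without the diet term; and with the replicate block DES was -0.144, FCGR3A -0.00544, NPG4 -0.0441 and HBB 0.0689. The number of arrays and the dim range of the array limit what could be called. Of the 52 probe sets called higher, 24 lay below 3.87. That is the median level of all tested probe sets, with as many of them below it as above.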

Other observations

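Genes of cholesterol synthesis and uptake lay slightly higher in the high arrays without a call. Of 13 tested, 10 had positive differences, with a median of 0.10, where 47.7% of all tested genes had positive ones. INSIG1, which holds back sterol synthesis when sterols are plentiful, ran from 5.86 through 6.00 to 6.21 in the high arrays and from 5.43 through 5.63 to 5.98 in the low arrays (limma, adjusted p = 0.095). SCD, a fatty acid desaturase, stood at 5.48 and 5.24, SQLE, squalene epoxidase, at 5.60 and 5.40, and FDFT1, squalene synthase, at 6.25 in both.

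Among 12 tested genes of the unfolded protein response, 9 had positive differences (47.7% of all tested genes did), with a median of 0.05. HSP90B1, a chaperone of the endoplasmic reticulum, ran from 8.16 to 8.30 in high arrays and from 7.84 to 8.17 in low arrays (adjusted p = 0.20). The 56 ribosomal protein genes and 39 genes of oxidative phosphorylation had medians of 0.001 and -0.01, with 28 and 19 positive, and 0 of them were called.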
